A study of Mus musculus with 4 samples.

Results

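G6pdx, Pgd, Tkt, Taldo1 and Me1 encode enzymes of the pentose phosphate pathway and of cytosolic NADPH supply, and the signal of an Nrf2 antibody at these 5 genes was compared between esophagi of 3 mouse genotypes. They were selected by gene symbol among the rows of a deposited chromatin immunoprecipitation sequencing (ChIP-seq) table. It lists 1940 genes with a called interval in or near them, so all 5 have a row by selection. The samples were esophagus of C57BL/6 mice with a knockout of Keap1 (Keap1KO), with a knockout of Nrf2 (Nrf2KO) or of wild-type genotype. Each genotype had 1 library, and the same antibody, from Santa Cruz, was used for the 3 libraries. A pooled input library without antibody was also part of the study and was not analysed here. The labels give neither the alleles, the cells in which Keap1 or Nrf2 was deleted, the age of the mice nor the number of animals behind a library. Antibody signal near genes is not expression, so the tissue could not be checked against marker genes.

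The pentose phosphate pathway oxidises glucose 6-phosphate. Its oxidative branch, in which G6pdx and Pgd act, reduces NADP+ to NADPH, and its non-oxidative branch, in which Tkt and Taldo1 act, exchanges carbon units with glycolysis. Malic enzyme, the product of Me1, makes NADPH in the cytosol from malate. NADPH is the electron donor of glutathione reductase and thioredoxin reductase, which protect cells, those of the squamous esophageal lining included, against oxidants. Nrf2 is a transcription factor that pairs with small Maf proteins on antioxidant response elements, and Keap1 is the adaptor protein that directs it to degradation. Genes of this group are known Nrf2 targets in mouse tissues.

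The promoter windows of 3 of the genes are shown because they hold either the called interval or a match to the core of the antioxidant response element, TGACNNNGC. Windows run from 250 bases before to 50 after a RefSeq gene start in GRCm38.p6, the assembly also called mm10, and all 5 genes matched one. The Pgd window, chr4:149166656-149166955 on the minus strand, contains the listed position of a called interval and no match. The G6pdx window, chrX:74428831-74429130 on the minus strand, contains 1 match on the strand opposite to the gene, and the Me1 window, chr9:86695865-86696164 on the minus strand, contains 1 on the strand of the gene. Capitals mark the matches in G6pdx and Me1, and in Pgd the 17 bases centred on the listed interval position.
Pgd: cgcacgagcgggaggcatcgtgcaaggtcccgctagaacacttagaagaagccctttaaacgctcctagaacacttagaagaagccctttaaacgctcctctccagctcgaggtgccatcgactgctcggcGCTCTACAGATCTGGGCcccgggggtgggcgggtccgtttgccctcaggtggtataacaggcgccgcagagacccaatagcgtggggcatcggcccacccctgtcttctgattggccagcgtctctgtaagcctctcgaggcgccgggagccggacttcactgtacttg
G6pdx: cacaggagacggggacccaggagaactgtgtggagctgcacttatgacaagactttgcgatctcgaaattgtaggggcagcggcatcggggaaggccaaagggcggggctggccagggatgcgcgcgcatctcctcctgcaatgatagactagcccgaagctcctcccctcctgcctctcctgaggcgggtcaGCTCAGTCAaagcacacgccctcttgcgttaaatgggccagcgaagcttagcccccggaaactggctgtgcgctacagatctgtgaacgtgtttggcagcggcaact
Me1: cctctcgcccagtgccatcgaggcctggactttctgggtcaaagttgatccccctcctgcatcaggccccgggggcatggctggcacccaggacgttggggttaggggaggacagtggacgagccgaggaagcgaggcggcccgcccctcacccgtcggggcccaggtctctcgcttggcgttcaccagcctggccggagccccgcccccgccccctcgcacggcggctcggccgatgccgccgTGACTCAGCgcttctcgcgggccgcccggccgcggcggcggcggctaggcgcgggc
The Me1 site read TGACTCAGC, began 6 bp upstream of the gene start and ran across it. The G6pdx site read TGACTGAGC on its own strand and began, along the gene, 57 bp upstream of the RefSeq start. That RefSeq start lies 281 bp inside the gene as the deposited table draws it, so by the table the site is centred 228 bp into G6pdx. Of the 5 windows, 2 held the core on either strand, against 12.4% of all 32851 RefSeq windows of 300 bases. Of the 1434 genes of the table matched to 1 window each, as the 5 were, 15.6% held it. The stricter form TGACTCAGC, which is contained in the core motif, was in the Me1 window. It was in 0.454% of all windows and in 0.767% of those of the 1434 genes. Among 122 genes of the table whose own window holds an interval, as that of Pgd does, 35.2% had the core motif. A match describes letters in these windows only, and the sequence under the intervals of Tkt, Taldo1, G6pdx and Me1, which lie outside the windows, was not analysed here.

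The table gives an average peak height per gene and library, without a unit, and flags the intervals called in each library. Neighbouring genes share intervals, so comparisons with the rest of the table used 1460 loci, each the regions listed under one set of genes. The median locus stood at 18 in Keap1KO, against 4.33 in Nrf2KO and 5 in wild-type. The files give no depth or counts, and a difference in depth between libraries cannot be told apart from genotype. With 1 library per genotype there is no replicate check and no test, and a rule of 2-fold describes size only. Ratios are log2 ratios of height + 1, which understate the change of low loci.

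Every one of the 5 genes had a higher Nrf2 signal in Keap1KO than in the other 2 libraries, from 2.50-fold (Me1) to 5-fold (Taldo1) over wild-type and from 4.00-fold (Me1) to 15.0-fold (Tkt and Taldo1) over Nrf2KO. The rule of 2-fold over wild-type was met by 5 of 5, and by 88.0% of all loci, and the same rule over Nrf2KO by 5 of 5 and by 85.3%. Shares so near the background say little about these genes. A rule of 4-fold was met over wild-type by Tkt, Taldo1 and G6pdx, 3 of 5 against 35.6% of loci, and over Nrf2KO by 5 of 5 against 47.3%, with Me1 exactly on it. These 4-fold counts rest on the pseudocount of 1. With a pseudocount of 5, 0 of 5 met the rule over wild-type (5.21% of loci) and 3 of 5 over Nrf2KO (14.2%), and with a pseudocount of 0.5 or scaled wild-type heights Pgd met it over wild-type too, which made 4 of 5 (40.2% and 50.5% of loci). Nearly all loci entered the table through a call in Keap1KO, which 5 of 5 had here against 99.2% of loci, and this selects Keap1KO heights upwards. No interval was called in Nrf2KO at any of the 5, nor at any other locus (0.0%). The genes differed more in height than in these counts, since Keap1KO heights spanned 19 to 89.

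**Figure D1:**
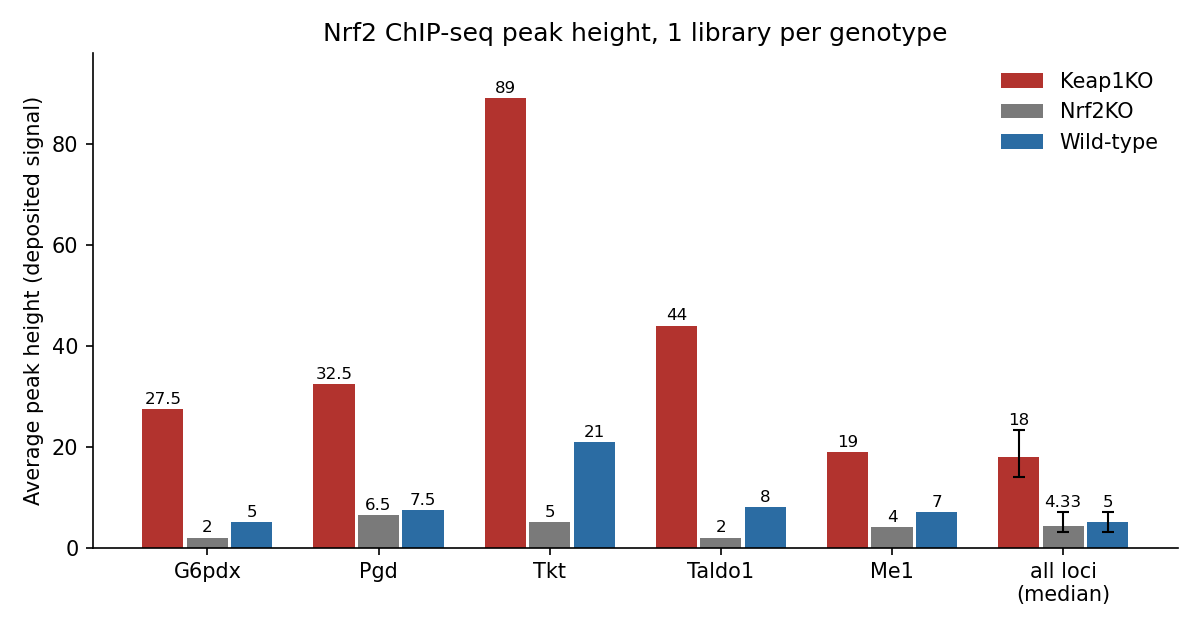
Average peak height (deposited signal, no unit given) at G6pdx, Pgd, Tkt, Taldo1 and Me1 in the Keap1KO, Nrf2KO and wild-type libraries, 1 library each, with the median of 1460 loci at the right (error bars, quartiles over loci). Tkt stands at 89 in Keap1KO and 21 in wild-type, while the other 4 genes are at 8 or less in wild-type.

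In the oxidative branch, both genes had 2 active regions (called intervals merged between libraries), a number above 1 that 12.4% of all loci had. G6pdx encodes glucose-6-phosphate dehydrogenase, the enzyme of the committed step. It had an average height of 27.5 in Keap1KO, against 2 in Nrf2KO and 5 in wild-type. Keap1KO was the high library, and wild-type lay closer to Nrf2KO than to Keap1KO. The log2 ratio of Keap1KO was 2.25 over wild-type (4.75-fold) and 3.25 over Nrf2KO (9.50-fold). The highest single height listed for the gene was 40, in Keap1KO, so the other region stood at 15 there. Which region is the taller is not stated, and wild-type and Nrf2KO are given only as means over both. The intervals, called in Keap1KO only, were listed 3817 and 4617 bp into the gene (chrX:74409486-74429161, minus strand, GeneID 14381), at positions 74425344 and 74424544. Both also lie inside Ikbkg, which encodes a regulatory subunit of the IKK kinase complex, 32053 and 31253 bp from its start, so the table assigns the same heights to Ikbkg. The RefSeq site in the G6pdx window was 3589 bp from the nearer interval.

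Pgd encodes phosphogluconate dehydrogenase, the other NADPH-producing dehydrogenase of the branch. Its average height was 32.5 in Keap1KO, against 6.50 in Nrf2KO and 7.50 in wild-type. Nrf2KO and wild-type thus lay within 1 unit of each other, and Keap1KO stood apart from both. The log2 ratio of Keap1KO was 1.98 over wild-type (3.94-fold) and 2.16 over Nrf2KO (4.47-fold). The taller region reached 49 in Keap1KO and the other 16. As at G6pdx, it is not stated which region is the taller. Wild-type and Nrf2KO heights are again means over both regions. One interval was listed 109 bp upstream of the gene start (chr4:149149985-149166707, minus strand, GeneID 110208), at position 149166816, inside the window printed above. The other was 4205 bp upstream, at position 149170912. Both are also listed downstream of Kif1b, a kinesin motor gene whose start is more than 100 kb away, at 140882 and 136786 bp.

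In the non-oxidative branch, Tkt, which encodes transketolase, was the tallest of the 5. Its height was 89 in Keap1KO, against 5 in Nrf2KO and 21 in wild-type. Tkt ranked 8 of 1460 loci by height in Keap1KO and 5 by height in wild-type, with 1 other locus equal to it in each. These ranks use average heights, and 12.4% of loci average more than 1 region while Tkt has 1. Txnrd1, for example, has an average of 77 in Keap1KO but a highest listed height of 139. In Nrf2KO Tkt was unexceptional, with 48.7% of loci at its height or above. The log2 ratio of Keap1KO was 2.03 over wild-type (4.09-fold) and 3.91 over Nrf2KO. Tkt was the only one of the 5 with an interval called in wild-type, which 3.77% of all loci had, and 2.95% had a call in both wild-type and Keap1KO as Tkt did. The Keap1KO and wild-type intervals were listed 15459 and 15475 bp into the gene (chr14:30549149-30574722, plus strand, GeneID 21881), at positions 30564608 and 30564624. They thus lay 16 bp apart, whereas the median distance over the 43 regions called in both libraries was 56 bp, and 10 of the 43 were at most 16 bp apart. The table's positions are multiples of 16 bp in 95.5% of intervals, so the distance is 1 step of that grid. The same intervals are listed 7541 and 7525 bp upstream of Mir3076, a microRNA gene inside Tkt.

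Taldo1, which encodes transaldolase, followed Tkt in average height, although the taller of the 2 Pgd regions reached 49 in Keap1KO. Taldo1 had 44 in Keap1KO, against 2 in Nrf2KO and 8 in wild-type. By average height, 4.45% of loci were at or above it in Keap1KO. The log2 ratio of Keap1KO was 2.32 over wild-type and 3.91 over Nrf2KO, equal to that of Tkt at a lower height. With only 2 in Nrf2KO, that ratio depends more on the pseudocount, and with one of 5 it was 2.81 at Taldo1 and 3.23 at Tkt. Its interval, called in Keap1KO only, was 896 bp into the gene (chr7:141392160-141402976, plus strand, GeneID 21351), at position 141393056. Taldo1 was the only one of the 5 whose interval is listed under no other gene, a sharing that 27.6% of all loci showed and 4 of the 5 here.

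Me1, which encodes the cytosolic NADP+-dependent malic enzyme, had the lowest Keap1KO height and the smallest ratios over both other libraries. Its height was 19 in Keap1KO, against 4 in Nrf2KO and 7 in wild-type. The log2 ratio of Keap1KO was 1.32 over wild-type, which 74.9% of loci equalled or exceeded, and 2.00 over Nrf2KO, equalled or exceeded by 47.3%. Its interval, called in Keap1KO only, was 490 bp into the gene (chr9:86581363-86695914, minus strand, GeneID 17436), at position 86695424. That is 18 bp upstream of A330041J22Rik, which is annotated on the opposite strand, so the signal may be counted to either gene. The interval was 492 bp from the centre of the TGACTCAGC site at the Me1 start.

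**Figure D2:**
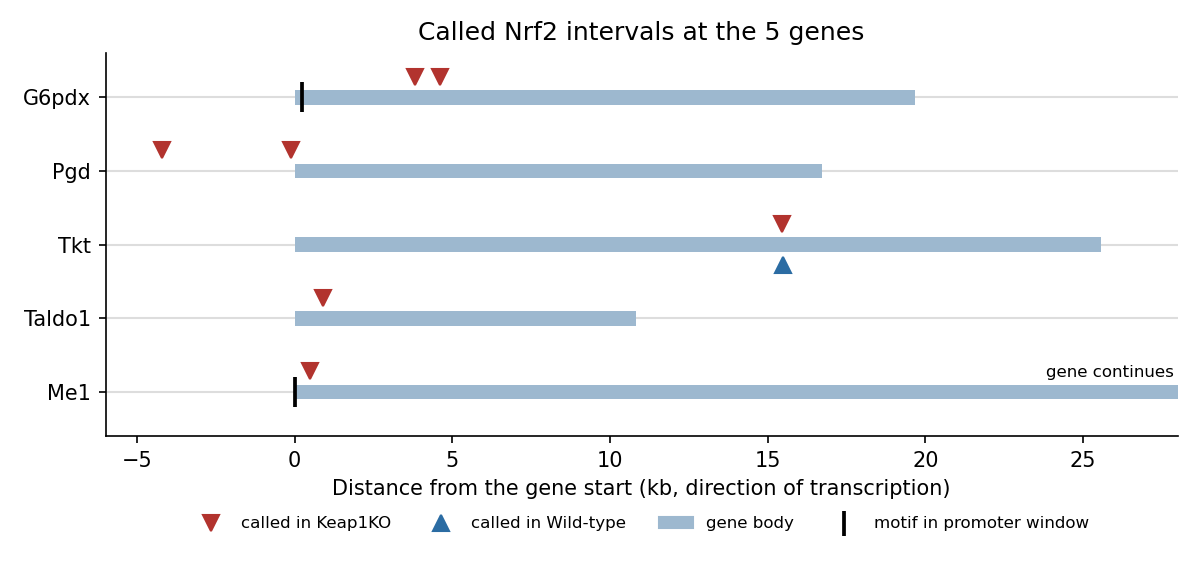
Listed positions of called intervals at the 5 genes, as distance in kb from the gene start of the deposited table, with Keap1KO calls as triangles above and the wild-type call as a triangle below each gene body, and core motif matches in the RefSeq promoter windows as black ticks. The intervals of Pgd are upstream, those of Me1 and Taldo1 less than 1 kb inside the gene, and the Keap1KO and wild-type calls of Tkt lie side by side about 15 kb inside.

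Between Nrf2KO and wild-type the genes differed among themselves. Nrf2KO was lower than wild-type at all 5. The median wild-type over Nrf2KO log2 ratio over all loci was also positive, at 0.19 (lower quartile -0.35). This direction alone thus says little about these genes. Nrf2KO was at least 2-fold lower at 3, against 18.8% of all loci, namely Tkt, Taldo1 and G6pdx. The wild-type over Nrf2KO log2 ratio was 1.87 at Tkt, with heights of 5 in Nrf2KO and 21 in wild-type, and 4.04% of loci had as large a ratio or larger. At Taldo1 it was 1.58 (3.00-fold), with 7.19% of loci as high. At G6pdx it was 1.00, exactly on the rule. There, Nrf2KO had 2 and wild-type 5, heights so low that 1 unit more in Nrf2KO would take it off the rule. Me1 reached 0.68 and Pgd 0.18, and the median over all loci was 0.19. With a pseudocount of 5 only Tkt remained at least 2-fold apart, and with wild-type heights scaled to those of Nrf2KO the Pgd ratio changed sign, to -0.10, while 2 genes met the rule. None of the 5 reached 4-fold, against 3.84% of loci.

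**Figure D3:**
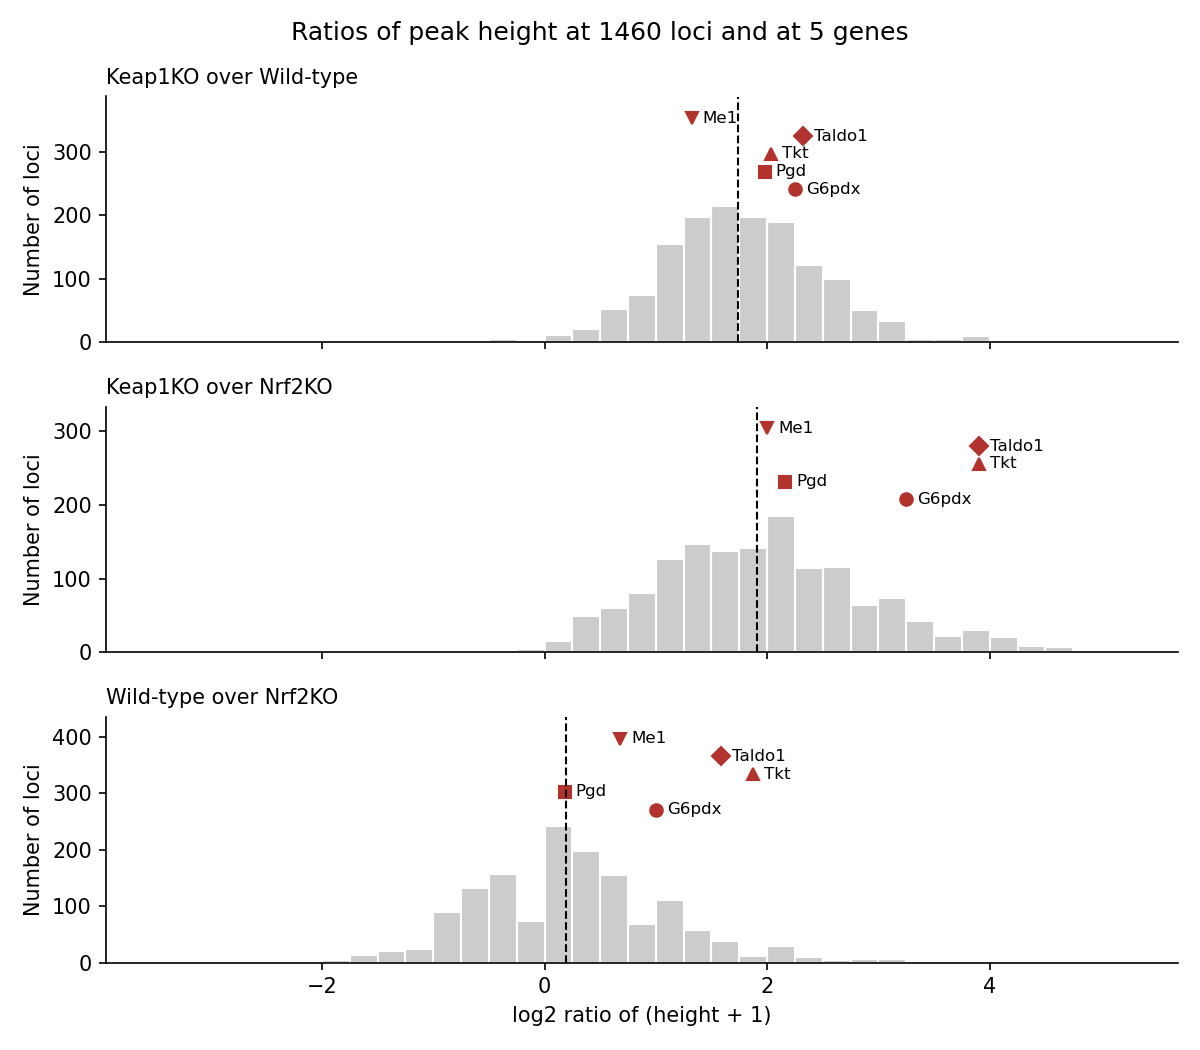
Distribution of the log2 ratio of height + 1 over 1460 loci (grey bars, number of loci per bin; dashed line, median) for Keap1KO over wild-type, Keap1KO over Nrf2KO and wild-type over Nrf2KO, with the 5 genes as red symbols set above the bars for legibility. Me1 lies left of the median for Keap1KO over wild-type, Tkt and Taldo1 lie far to the right in both comparisons with Nrf2KO, and Pgd lies at the median of wild-type over Nrf2KO.

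Heights over the table differed with position, so the genes were also set beside loci at a like distance from a gene start. Loci within 1 kb of a listed start, 31.1% of all, had median heights of 17 in Keap1KO, against 7 in Nrf2KO and 6.58 in wild-type, and those farther away had 18, 4 and 4.50 in the same order. A locus was classed by its nearest interval, and Pgd, whose intervals lie 109 and 4205 bp upstream, averages both in its height. Its shares below thus mix both distances. Pgd, Taldo1 and Me1 belong to the first class. Within it, 1.54% of loci had a Keap1KO over Nrf2KO ratio as large as that of Taldo1, 16.3% as large as that of Pgd and 22.0% as large as that of Me1. For wild-type over Nrf2KO these shares were 2.86%, 38.3% and 16.1%. Tkt and G6pdx belong to the farther class, where 4.97% and 12.2% of loci had as large a Keap1KO over Nrf2KO ratio. For Keap1KO over wild-type, the shares of the same class were 9.47% at Taldo1, 20.9% at Pgd, 29.5% at G6pdx, 39.3% at Tkt and 56.8% at Me1. Taldo1, Pgd and Me1 thus stood higher against loci near a start than against all loci in each comparison. Tkt and G6pdx stood a little lower against the farther class. The class near a start had the lower median ratio in each comparison.

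**Figure D4:**
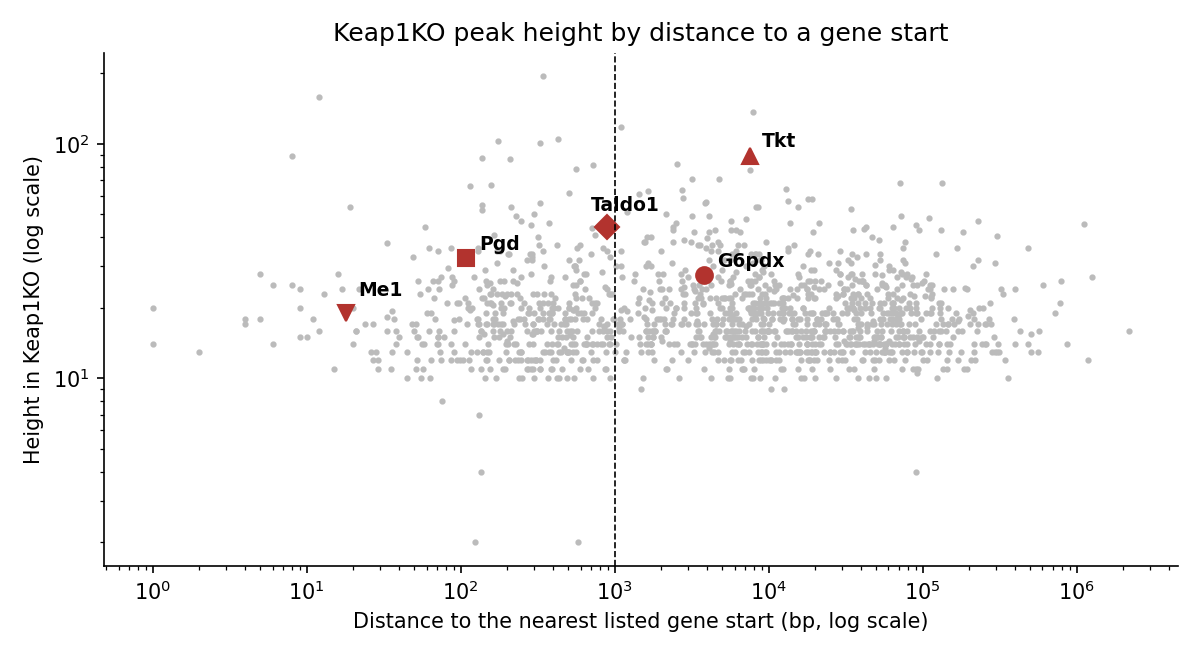
Height in Keap1KO against the distance from the nearest listed gene start, both on log scales, for 1460 loci (grey points) and the 5 genes (red symbols); the dashed line marks 1000 bp. A locus of more than 1 region, such as Pgd or G6pdx, is placed by its nearest interval and shown at its mean height. The start nearest to the Tkt interval is that of Mir3076 and the one nearest to the Me1 interval is that of A330041J22Rik. Tkt at 89 is among the tallest loci beyond the line.

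Of 23 other genes of the pathway and of NADPH supply, 2 had a row under the symbol searched. Of the other 21, Nadk2 is listed under its older symbol, Nadkd1. Its height was 27 in Keap1KO, against 1 in Nrf2KO and 4 in wild-type, with log2 ratios of Keap1KO of 2.49 and 3.81 over wild-type and Nrf2KO. The rest of the 21 were not analysed here, and older symbols were not searched for. H6pd, which encodes the hexose-6-phosphate dehydrogenase of the endoplasmic reticulum, a counterpart of G6pdx, had 3 regions 479, 6383 and 6783 bp into the gene, all called in Keap1KO only. Its average height was 19 in Keap1KO, against 4.33 in Nrf2KO and 6.67 in wild-type, and its highest region stood at 26. Mthfd1l, which encodes a mitochondrial formyltetrahydrofolate synthetase of one-carbon metabolism and does not itself make NADPH, had 17 in Keap1KO, against 4 in Nrf2KO and 2 in wild-type. Its interval lay 135085 bp into the gene, and it was the only pathway gene with a row at which Nrf2KO exceeded wild-type.

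The 5 genes were set beside 2 related groups, without a test. Their median height was 32.5 in Keap1KO, against 4 in Nrf2KO and 7.50 in wild-type. In 8 of 16 glycolysis genes with a row, medians were 27.8 in Keap1KO, against 4.75 in Nrf2KO and 7.50 in wild-type, and 1 of the 8, Gpi1, was called in wild-type. Gpi1 encodes the isomerase that acts on the same glucose 6-phosphate as G6pdx, and its heights were 101 in Keap1KO, against 4 in Nrf2KO and 32 in wild-type. That region is also listed under 4931406P16Rik and Gm12758. It lies 3711 bp from the Gpi1 start, while the nearest listed start is 329 bp away. The other group was 6 genes of antioxidant reduction, namely Gsr, Txnrd1 and Nqo1, whose enzymes can take electrons from NADPH, and Txn1, Prdx1 and Srxn1, which belong to or act with the thioredoxin system. Of these, 3 of 6 (Txnrd1, Txn1 and Prdx1) were called in wild-type, as was 1 of the 5 genes, Tkt. Medians of the 6 were 104 in Keap1KO, against 6.50 in Nrf2KO and 12.5 in wild-type. The 6 were chosen by name and do not cover all such genes, so these medians depend on the choice. Prdx2, for example, was left out, and its locus had 17 in Keap1KO, against 4 in Nrf2KO and 3 in wild-type. Other genes left out were not surveyed. The median log2 ratio of Keap1KO over wild-type was 2.03 for the 5 genes, 2.03 for glycolysis and 2.75 for antioxidant reduction, against 1.74 over all loci. For Keap1KO over Nrf2KO it was 3.25, 2.45 and 3.78 in the same order, against 1.91. For wild-type over Nrf2KO it was 1.00, 0.30 and 0.98, against 0.19. The value of 1.00 is that of G6pdx, whose heights are low in both libraries. It fell to 0.51 with a pseudocount of 5 and to 0.74 with scaled wild-type heights. The 2 related groups were not recomputed under these settings. Gsr, which encodes glutathione reductase, had the lowest Keap1KO height of the antioxidant reduction genes, with 27 in Keap1KO, against 3.50 in Nrf2KO and 5.50 in wild-type, close to G6pdx.

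Genes with the most similar heights were found by the Euclidean distance of log2(height + 1) over the 3 libraries, with the 2 nearest taken per gene. Nearest to G6pdx was Gclm, which encodes the modifier subunit of glutamate-cysteine ligase, with 28 in Keap1KO, against 2 in Nrf2KO and 5 in wild-type (distance 0.025). Gm6999 had the same heights, as 3 genes did in all. Nearest to Pgd were Gbe1, which encodes the glycogen branching enzyme, with 32, 6.50 and 7.50 in the same order of libraries, and Map3k14. Taldo1 was nearest to Mboat2 (43 in Keap1KO, against 2 in Nrf2KO and 7 in wild-type) and 1700028I16Rik, and Me1 to Dock9 and C2cd2, with distances of 0.0875 to 0.236 for these 4. Tkt had no close match. Its nearest were Snx29, with 68 in Keap1KO, against 6 in Nrf2KO and 18 in wild-type (distance 0.491), and E030042O20Rik, with 78, 7 and 17 (distance 0.540), whose locus is also listed under Nfe2l2, the gene of Nrf2 itself.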

How the data were processed

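Nrf2 ChIP-seq libraries of Keap1KO, Nrf2KO and wild-type mouse esophagus were used, 1 per genotype; the pooled input was not used. The submitters' processing notes name BWA, MACS2 2.1.0 and the build mm10; parameters, depth and scaling are not given in the sources here. Per the file headers, the deposited signal is an average peak height per gene and library over its active regions, and the flags (0 or 1) mark called intervals. In the 1681 genes with 1 region, 100% of heights were whole numbers. Interval positions were computed from gene start, strand and listed distance. The 1727 intervals (1671 Keap1KO, 56 wild-type, 0 Nrf2KO) were merged to the stated number of regions per gene, giving 1684 regions and 1460 loci, whose heights were solved by least squares (largest residual 0.00186) with numpy 2.4.6; this step was tested on simulated data. Log2 ratios used a pseudocount of 1. Upstream sequences came from RefSeq, GRCm38.p6, of which 1434 genes of the table had a window. The members, gene lists and rules were chosen with earlier results of these data known. Named genes were the 5, every other listed pathway gene with a row and genes sharing an interval. Genes of the related lists, Prdx2 and the 2 nearest in height per gene were also named. Other pseudocounts, scaling, fold rules, heights per gene, a stricter call, a minimum height and a stricter motif were tried.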

Additional observations from a re-analysis of the deposited data

How the results depend on the processing

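No paired analysis was possible because only 1 library exists per genotype in these files. Of 117 values under an alternative, 96 kept their direction and moved by at most 1.5 times, 20 moved by more and 1 changed sign; the cause was not tested, except that a larger fold rule or a filter retains fewer loci, and a larger pseudocount by construction shrinks each ratio. With a 4-fold rule 3 of the 5 genes (Tkt, Taldo1 and G6pdx) and 520 loci were higher in Keap1KO than in wild-type, 5 genes and 691 loci higher in Keap1KO than in Nrf2KO, and 0 genes and 56 loci higher in wild-type than in Nrf2KO. Chosen after seeing the data, the 4-fold rule with a pseudocount of 5 left 0 genes over wild-type and 3 (Tkt, Taldo1 and G6pdx) over Nrf2KO for Keap1KO, and with a pseudocount of 0.5 or the scaling Pgd joined the 3 over wild-type. A filter at the median of the mean heights left 661, 632 and 120 loci at the 2-fold rule. A pseudocount of 5 gave a median log2 ratio of Keap1KO over Nrf2KO of 2.21 for the 5 genes, and left 1 gene and 58 loci at least 2-fold higher in wild-type than in Nrf2KO. Wild-type heights multiplied by 0.8, which brings their median to that of Nrf2KO over loci not called in wild-type, left 162 such loci and changed the sign of Pgd (-0.0995). The motif TGACTCAGC was in 1 of the 5 windows, against 2 for TGACNNNGC. Unknown depth limits every ratio between libraries.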
